A study of Mus musculus with 17 samples.

Results

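Young-methylated CpG-poor intergenic sites are CCCGGG sites of the mouse genome that lay outside every annotated gene and promoter, sat in CpG-poor sequence and were highly methylated in the blood of young mice. They were selected on 3 grounds. The mean raw methylation over the young mice had to exceed 80%, the 500 bp of sequence centred on the site had to have a GC content below 50% or an observed over expected CpG ratio below 0.6, and the site had to lie outside all GENCODE M1 genes and not within 1000 bp before to 500 bp after any transcription start. A total of 15742 autosomal sites reached 100 reads in 13 or more of the 17 mice, and 1232 of these met the rule, while the deposited tables held 173449 genomic sites in all. The same rule gave 2088 sites inside gene bodies and 245 in promoters. The level in young mice chose these sites, so all values of young mice and all differences from them are given as descriptions without a test. Methylation in old mice on the 2 diets took no part in the rule, and old mice on the 2 diets were compared by a test. The young mice, whose values chose the sites, entered the main fit of that test through its estimate of the spread. The set itself was chosen with earlier results of these data known.

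Whole blood DNA came from 17 C57BL/6 mice, an inbred laboratory strain, and each mouse gave 1 library. The 5 AL-young mice (2 females and 3 males) were 4 months old and fed ad libitum (AL). The 7 AL-old mice (5 females and 2 males) were 29 to 33 months old and also fed ad libitum. The 5 CR-old mice (2 females and 3 males) were 32 to 38 months old and had been kept under caloric restriction (CR). No mouse carried an engineered allele according to the labels, and no label gave a batch, an instrument or a date. The comparison of CR-old with AL-old mice asks whether restricted feeding goes with another methylation state late in life. Each mouse is 1 replicate. The assay reads DNA, so the blood label was not checked against marker genes. CR-old mice were on the whole older than AL-old mice, so diet and these extra months cannot be told apart.

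In the mammalian genome most CpG dinucleotides outside CpG islands carry methylation, which maintenance enzymes copy to the new strand at each cell division. Intergenic DNA is poor in CpG because methylated cytosines are lost by deamination over evolution, and the CpGs that remain often stand alone. Loss of methylation from such sequence is a known feature of ageing and of dividing cells. The assay used, Digital Restriction Enzyme Analysis of Methylation (DREAM), cuts DNA first with SmaI, which methylation blocks, and then with XmaI, which is not blocked, so that each read end tells whether its CCCGGG was methylated. Blood is a mixture of cell types, and a change in their shares and a change in methylation within a cell cannot be told apart in such values.

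The sequences of 11 sites are printed here because the diet results and the contrast between labile and steady neighbours turn on them. Each run is the plus strand of NCBIM37 (the assembly also called mm9), 5′ to 3′, and holds 100 bases around the site. Capitals mark the CCCGGG that was measured and every other CG. The gene named with a sequence is the one with the nearest annotated transcription start, which need not be a target of the site. Map3k7, Rbm38, Prdm10, Ssr3 and Adam23, named further on, are the nearest protein-coding genes of their sites. The start of a pseudogene or processed transcript lay nearer there.
Tnfrsf13c site, chr15:82060548-82060647: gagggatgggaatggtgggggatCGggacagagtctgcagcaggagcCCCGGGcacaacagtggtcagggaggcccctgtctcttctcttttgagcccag
Clrn3 site, chr7:142681682-142681781: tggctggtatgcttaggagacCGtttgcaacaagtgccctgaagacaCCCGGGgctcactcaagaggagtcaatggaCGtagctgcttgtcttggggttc
Begain site a, chr12:110349420-110349519: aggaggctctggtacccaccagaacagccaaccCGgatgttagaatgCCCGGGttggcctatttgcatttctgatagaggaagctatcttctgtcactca
Begain site b, chr12:110349518-110349617: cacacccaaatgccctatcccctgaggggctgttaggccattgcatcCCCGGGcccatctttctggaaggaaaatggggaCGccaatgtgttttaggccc
2310015A10Rik site, chr12:81248859-81248958: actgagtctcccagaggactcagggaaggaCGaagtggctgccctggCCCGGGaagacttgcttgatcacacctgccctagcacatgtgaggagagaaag
Cpsf6 site, chr10:116827600-116827699: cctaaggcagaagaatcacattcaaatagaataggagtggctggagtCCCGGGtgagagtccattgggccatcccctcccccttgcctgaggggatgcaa
Gm8935 site, chr3:12403182-12403281: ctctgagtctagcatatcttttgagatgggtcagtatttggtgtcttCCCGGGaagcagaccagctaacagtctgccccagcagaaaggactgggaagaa
Gm17031 site, chr12:107752445-107752544: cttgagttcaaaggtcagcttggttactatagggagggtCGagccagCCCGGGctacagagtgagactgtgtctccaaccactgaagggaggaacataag
Rapgef1 site a, chr2:29423846-29423945: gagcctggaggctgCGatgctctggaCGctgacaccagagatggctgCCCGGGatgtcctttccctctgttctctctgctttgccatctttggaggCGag
AC152946.1 site a, chr10:96595630-96595729: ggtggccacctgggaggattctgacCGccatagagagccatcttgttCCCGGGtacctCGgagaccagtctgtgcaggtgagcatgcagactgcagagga
AC152946.1 site b, chr10:96595457-96595556: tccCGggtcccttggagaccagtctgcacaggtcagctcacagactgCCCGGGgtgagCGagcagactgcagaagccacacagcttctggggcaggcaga

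The mice differed in depth and in how their spiked standards read, and both bear on the values that follow. Total reads ran from 6427598 in AL-old 27 to 52015913 in AL-young 30 (mice go by the number in their label). The ratio of adjusted to raw odds in a mouse, taken as the median over partly methylated sites, is called the correction factor here. It was 0.872 to 1.13 in 11 mice. It was 1.40 to 3.96 in AL-old 08, 09, 10, 13 and 14 (all the AL-old females) and CR-old 06 (a female). Near full methylation the authors' adjustment was not exactly this scaling. At AC152946.1 site b all 7 AL-old mice read 100% raw and 99.86 to 99.96% adjusted. In these 6 mice the partly methylated standard Kan_1 read at 5.18 to 17.9% against 30.3 to 38.5% in the other 11, while the methylated standard T324_1 read at 98.4% or more in every mouse. High correction, sex and AL feeding in old age therefore cannot be told apart in most AL-old mice. AL-old 08 and 13 also had at least 100 reads at only 678 and 853 of the 1232 sites, and AL-old 27 at 991. AL-old 25, a male of 33 months, stood apart from the rest of its group and read close to the young mice, as given next. Raw methylation, the percent of methylated reads where a site had at least 100 reads, is the main value here, and adjusted methylation is given where it moves a result.

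The 1232 sites were uniformly methylated in AL-young mice and unevenly methylated in AL-old mice. The mean raw methylation over the sites was 93.1, 93.4, 93.8, 93.7 and 93.2% in AL-young 15, 16, 28, 29 and 30. In AL-old 08, 09, 10, 13, 14, 25 and 27 it was 74.4, 86.4, 85.7, 70.8, 88.8, 93.1 and 81.9%. In CR-old 02, 06, 19, 20 and 22 it was 90.3, 89.7, 85.2, 88.0 and 89.5%. Every old mouse except AL-old 25 lay below the range of the young mice, and the ranges of AL-old and CR-old mice overlapped. The group means were 93.4 ± 0.32% (SD, n = 5), 83.0 ± 7.94% (SD, n = 7) and 88.5 ± 2.04% (SD, n = 5) for AL-young, AL-old and CR-old. Adjustment drew the old groups together, to 87.7 ± 4.46% in AL-old and 89.3 ± 2.70% in CR-old mice. In the adjusted values AL-old 27 was lowest at 80.6% and AL-old 13 followed at 83.3%.

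**Figure D1:**
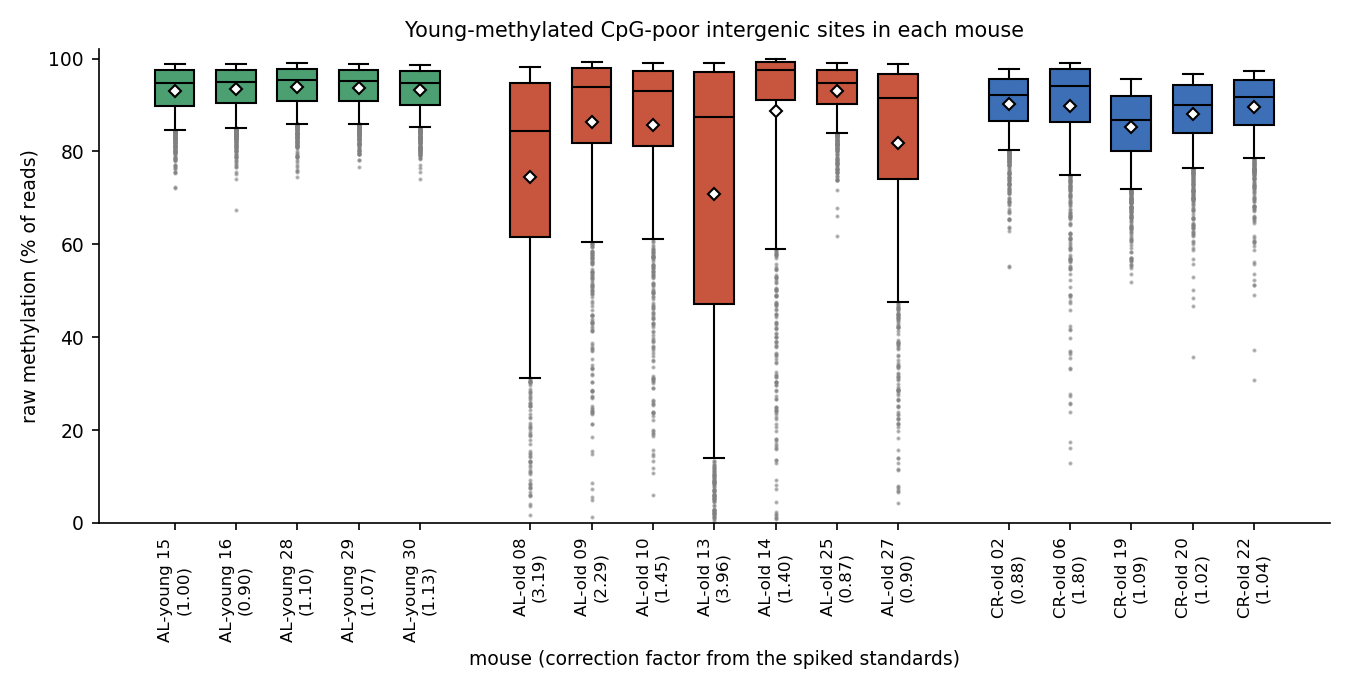
Raw methylation (% of reads) of the young-methylated CpG-poor intergenic sites in each of the 17 mice, with the correction factor of the mouse in brackets. Boxes span the quartiles with the median as a line, whiskers reach the 10th and 90th percentiles, grey points are sites below the 10th percentile and diamonds are means. The AL-young boxes and AL-old 25 are narrow and high, the other AL-old mice have long lower tails, and the CR-old boxes sit a little lower than the young ones with short tails except in CR-old 06.

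Means hid 2 different shapes. In the first, most sites stayed high while some lost most of their methylation, and in the second, many sites were slightly lower. AL-old 14 shows the first shape, since its median over the sites was 97.6%, above every AL-young mouse (94.6 to 95.4%), while 91 of its 1208 measured sites (7.53%) were below 50%. CR-old 19 shows the other shape, with a median of 86.9%, the lowest of the CR-old mice, and no site below 50% among 1231. The shapes did not divide the groups cleanly. AL-old 08 and 13 had low medians, 84.3 and 87.5%, as well as deep losses. CR-old 06 had a median of 94.1% and 25 sites below 50%. Sites below 50% made up 18.4, 5.47, 6.10, 26.6, 7.53, 0 and 11.2% of the measured sites in AL-old 08, 09, 10, 13, 14, 25 and 27. In CR-old 02, 06, 19, 20 and 22 these shares were 0, 2.06, 0, 0.243 and 0.245%. CR-old 06, the CR-old mouse with a high correction factor (1.80), thus had the largest share of its group. Of the AL-old mice with a low factor, AL-old 27 (0.904) had 11.2% of sites below 50% and AL-old 25 (0.872) had none. These shares are of raw values. A fall of more than 20 points below the AL-young mean was counted in both values. In AL-old 08, 13 and 27 it was met at 32.6, 38.7 and 23.4% of sites raw and 15.3, 21.2 and 25.7% adjusted. In CR-old 06 and 19 the shares were 6.09 and 3.98% raw and 2.55 and 3.09% adjusted. The highest mouse of each old group therefore depended on the correction.

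The deep losses, counted in raw values only, fell at partly shared sites. Among the 612 sites measured in all 7 AL-old mice, 400 were below 50% in none of them, 91 in 1 mouse, 43 in 2, 36 in 3, 19 in 4, 15 in 5 and 8 in 6. No site was below 50% in all 7, because AL-old 25 had none. In pairs of mice, 71 sites were below 50% in both AL-old 13 and AL-old 27, which is 33.3% of those of AL-old 13 and 74.7% of those of AL-old 27 among the 753 sites measured in both. AL-old 14 and AL-old 27 shared 31 such sites, 39.2% and 27.9% of their lists among 983 sites. All 21 sites below 50% in CR-old 06 that AL-old 13 also measured were below 50% there too, and they were 9.55% of the list of AL-old 13. With AL-old 14 the share was lower, 9 of 24 sites (37.5%).

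AL-old 25 read close to the young mice. The mean absolute difference between its sites and those of an AL-young mouse was 2.28 points on average (2.01 to 2.50 over 5 mice), against 14.7 points (10.1 to 24.8) to the other 6 AL-old mice. Pairs of AL-young mice differed by 1.76 points (1.52 to 1.96, 10 pairs), pairs of AL-old mice by 15.1 points (8.95 to 24.8, 21 pairs) and pairs of CR-old mice by 5.25 points (3.01 to 8.21, 10 pairs). With adjusted values these averages were 1.85, 11.2 and 5.13 points. From AL-old 25 the adjusted averages were 2.67 points (2.25 to 2.99) to AL-young mice and 10.5 points (6.92 to 14.65) to other AL-old mice. In both values AL-old 25 was on average farther from the young mice than they were from each other. Its adjusted mean over the sites was 92.0%, below the 92.6 to 94.1% of AL-young mice. The label of AL-old 25 was kept, and the diet calls, the spread between AL-old mice and the falls of their mean are given with and without it. Without it the mean of the other 6 AL-old mice was 81.3 ± 7.20% (SD, n = 6) raw and 87.0 ± 4.42% (SD, n = 6) adjusted.

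The spread between mice of a group was wide at AL-old sites. The median SD of a site was 1.24 points over AL-young, 8.85 points over AL-old and 3.65 points over CR-old mice. It exceeded 10 points at 0, 584 and 73 of the 1232 sites. The AL-old SD was larger than the CR-old SD at 915 sites (74.3%), against 64.3% of all 15742 sites. With adjusted values the share was 65.3% (804 sites), against 80.3% of all sites, so a larger share than over all sites was seen with raw values and a smaller one with adjusted values. Without AL-old 25 the SD exceeded 10 points at 588 sites and was larger than in CR-old mice at 902 (73.2%, against 58.7% of all sites), or at 777 (63.1%, against 78.7%) with adjusted values.

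**Figure D2:**
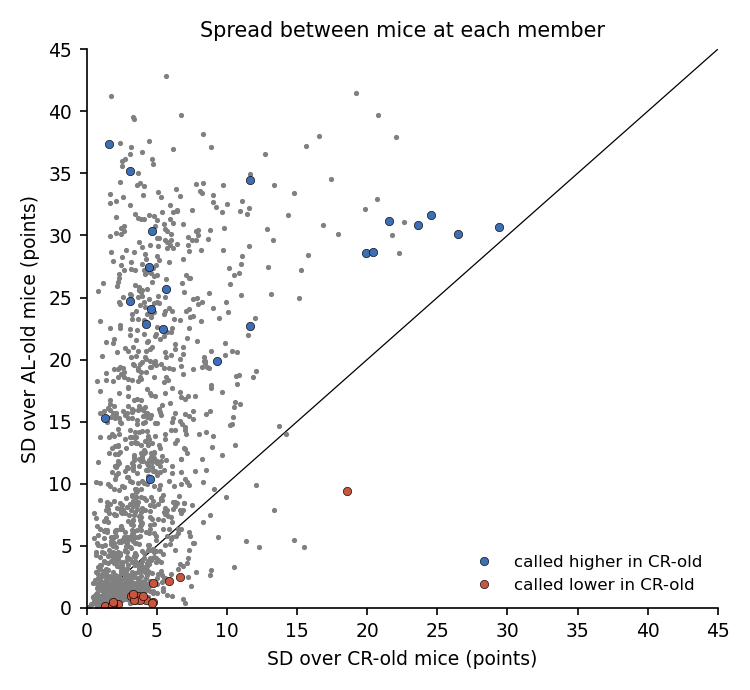
SD of raw methylation (points) over AL-old mice (y axis) against that over CR-old mice (x axis), 1 point per site, with the line of equal SD. Sites called between the diets are coloured, and 915 of the 1232 sites lie above the line.

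The diet comparison used read counts of all 17 mice in the quasi-likelihood test of edgeR, with a Benjamini-Hochberg adjusted p under 0.05 over all 15742 sites and raw group means at least 2 points apart as the rule for a call. CR-old mice were called higher than AL-old mice at 21 of the 1232 sites (1.71%, background 1.65% of all sites) and lower at 18 (1.46%, background 1.77%). Both shares were close to those of all sites, so the counts are not a result about intergenic sites. In the gene body class 69 sites were called higher (3.3%) and 29 lower (1.39%), and in the promoter class 15 (6.12%) and 1 (0.408%). At an unadjusted p under 0.05 there were 256 intergenic sites (20.8%, against 15.9% of all sites).

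The 2 directions differed in kind. The 21 sites called higher had AL-old means of 14.01 to 83.5% (median 43.3%), CR-old means of 51.1 to 97.9% (median 79.9%) and differences of 7.88 to 57.7 points (median 35.2). The 18 sites called lower were nearly fully methylated in AL-old mice (median of the means 99.4%) and a few points lower in CR-old mice (median 94.5%), with a median difference of -4.53 points and a range from -33.8 to -2.55. All 39 differences kept their direction in adjusted values. The correction factor moved with these calls and its part in them was not tested beyond the following fits. Once high against low correction entered as a covariate, edgeR called 0 of the 1232 sites in either direction (background 0.0381% higher and 0.381% lower). The smallest edgeR adjusted p was 0.054. At an unadjusted p under 0.05 there were 105 sites (8.52%), and the share over all sites is not given here.

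With the correction factor as an offset the balance turned, with 14 sites called higher (background 1.22%) and 116 lower (background 6.64%), and 14 of the 21 and all 18 calls were kept. The fit with only the 11 low-correction mice held AL-old 25 and 27 and all CR-old mice but 06. It called 0 sites higher (background 0.108%) and 15 lower (background 1.01%), of which 4 were among the 18. At an unadjusted p under 0.05 it had 308 sites (25%), and the share over all sites is not given here. Without AL-old 25 the counts rose to 91 higher (background 4.19%) and 50 lower (background 3.70%), and all 39 calls were kept. The AL-young mice, whose values chose the sites and which differ little from each other, shared in the estimate of the spread. The common dispersion was 0.291 in the main fit and 0.387 with the old groups alone. The fit of the old groups alone kept 10 of the 21 calls (background 0.883%) and 4 of the 18 (background 0.743%). Of the 611 sites with at least 100 reads in all 12 old mice, none separated the diets completely with all CR-old values on top (background 0.0913% of 12048 sites) and 3 did so with all CR-old values at the bottom (background 0.473%).

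Across the sites, neither diet group was higher throughout. The median difference, CR-old minus AL-old, was 0.34 points in raw and -1.50 points in adjusted methylation, against 0 and -0.23 points over all 15742 sites. Raw means were higher in CR-old mice at 642 sites (52.1%, against 43.7% of all sites), and adjusted means at 449 (36.4%, against 23.7%). The median was 2.18 points among females, -2.49 points among males and -2.13 points among low-correction mice. It turned negative without AL-old 08, AL-old 13, AL-old 27, CR-old 02 or CR-old 06, to between -0.29 and -0.01 points. The direction of the median therefore depended on the value used and on the mice.

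**Figure D3:**
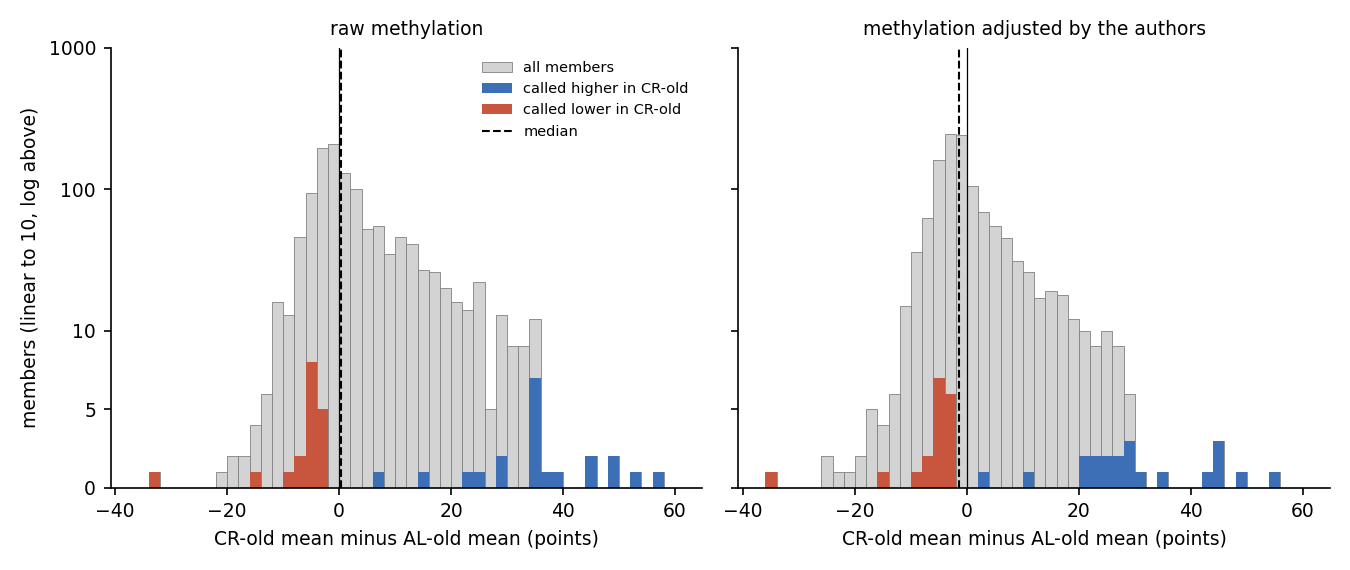
Number of sites (y axis, linear to 10 and logarithmic above) by the difference between the CR-old and AL-old means in points (x axis), for raw methylation (left) and methylation adjusted by the authors (right). The dashed line is the median, 0.34 points raw and -1.50 points adjusted, and coloured bars are the 21 sites called higher and the 18 called lower, which stand in the right tail and mostly just left of 0, with the lowest at -33.8 points.

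At 4 of the 5 named sites called higher, 6 of the 7 AL-old mice were below 25% while most CR-old mice stayed above 50%. The largest difference was at chr15:82060595-82060600, 5.81 kb upstream of the start of Tnfrsf13c, the receptor for the B cell survival factor BAFF (printed above as the Tnfrsf13c site). The 5 AL-young mice read 89.0 to 95.7% there. The 7 AL-old mice ran from 1.60% to 88.0% with a median of 7.69%, and the highest of them was AL-old 25, since no other exceeded 19.1%. CR-old 02, 06, 19, 20 and 22 read 79.9, 36.4, 82.0, 89.7 and 96.6%. All 5 CR-old mice were above the 6 other AL-old mice and 2 of them also above AL-old 25. On the log2 scale the odds ratio came to 5.62 ± 0.93 (SE), with an edgeR adjusted p = 0.000183.

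The next site, chr7:142681729-142681734, lay 38.6 kb downstream of the start of Clrn3, a clarin family membrane protein. AL-young mice read 79.2 to 83.7%. AL-old mice ran from 0.446 to 83.5% with a median of 1.66%, and without AL-old 25 none exceeded 5.93%. CR-old mice read 65.4, 12.97, 70.6, 75.5 and 90.1%, in the order of the mice above. The lowest was CR-old 06, which still lay above those 6 AL-old mice (log2 odds ratio 6.26 ± 1.00, SE, edgeR adjusted p = 0.000173).

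Begain, which encodes a protein of neuronal synapses, was the gene nearest to 2 sites 98 bp apart, 57.9 and 58.0 kb upstream of its start. Site a, at chr12:110349467-110349472, read 81.1 to 86.8% in AL-young mice and 1.96 to 83.9% (median 14.9%) in AL-old mice. CR-old mice read 67.1, 36.8, 73.1, 84.7 and 88.1% at site a, all above the AL-old mice other than AL-old 25, whose highest value was 23.7% (log2 odds ratio 4.36 ± 0.87, SE, edgeR adjusted p = 0.0018). Site b, at chr12:110349565-110349570, read 84.3 to 89.9% in AL-young and 0.776 to 89.4% (median 7.29%) in AL-old mice. CR-old mice read 63.7, 23.9, 66.0, 81.5 and 86.0% at site b (edgeR adjusted p = 0.00181). The sites lie close enough to be ends of 1 restriction fragment and are not independent.

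The site at chr12:81248906-81248911 lay 15.1 kb upstream of the lincRNA 2310015A10Rik, and its nearest protein-coding start, 34.9 kb away, was that of Zfp36l1, an RNA-binding protein that promotes mRNA decay. AL-young mice read 77.1 to 88.5%, and AL-old mice ran from 0.928 to 84.3% with a median of 5.47%. CR-old mice read 62.8, 17.3, 70.8, 77.7 and 84.1% (log2 odds ratio 4.92 ± 0.93, SE, edgeR adjusted p = 0.00116). The highest AL-old value other than AL-old 25 was 14.4%, just below the 17.3% of CR-old 06.

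The Cpsf6 site had another pattern, with CR-old mice close together and AL-old mice scattered. It lay at chr10:116827647-116827652, 13.6 kb from the start of Cpsf6, a subunit of a pre-mRNA 3′ end cleavage factor, with no other CG in the printed run. AL-young mice read 81.9 to 92.5%, AL-old mice ran from 5.17 to 85.7% with a median of 45.9%, and CR-old mice read 75.2, 84.4, 75.7, 77.8 and 84.7%. CR-old 06 was not low here (log2 odds ratio 2.76 ± 0.79, SE, edgeR adjusted p = 0.0317). The call was lost in 6 of 17 fits that left out 1 mouse, while the calls at the Tnfrsf13c site, the Clrn3 site, Begain site a and the 2310015A10Rik site were kept in all 17.

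The mean differences at these 5 sites, 38.3 to 57.7 points in raw methylation, were 29.8 to 55.5 points in adjusted methylation. With correction as a covariate none of the 5 was called, and the adjusted p ran from 0.054 to 0.149. Among the low-correction mice alone the raw differences were 28.2 to 39.2 points in the same direction and also not called (adjusted p 0.153 to 0.347). In the fit of the old groups alone the Cpsf6 site was not called (edgeR adjusted p = 0.068). The other 4 were called there, with edgeR adjusted p of 0.000887 or less. AL-old 27, the low-correction AL-old mouse other than AL-old 25, read 7.69, 4.28, 7.37, 6.89 and 11.4% at the 5 sites.

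**Figure D4:**
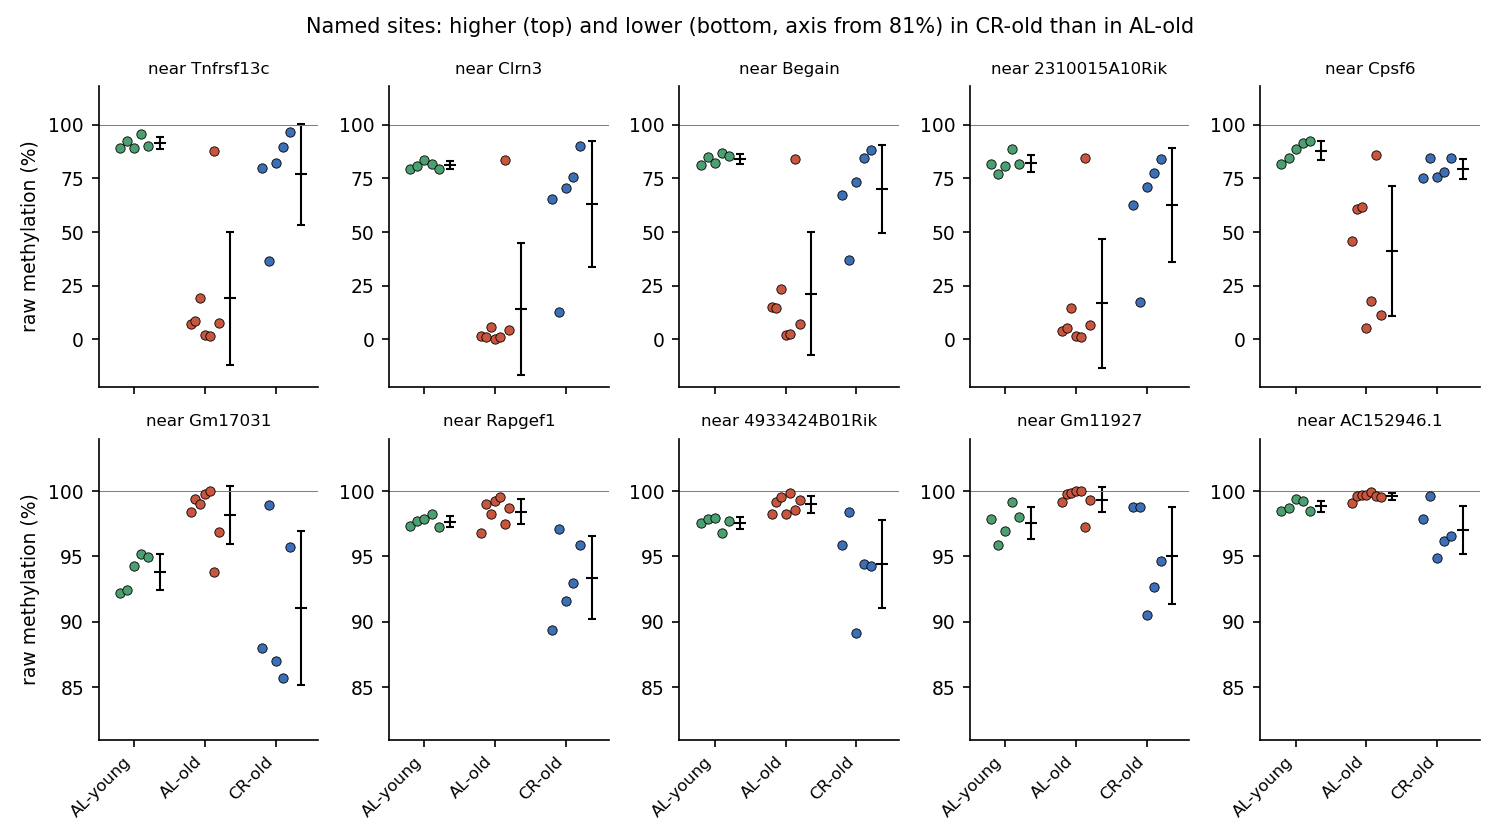
Raw methylation (%) in each mouse at the 5 named sites called higher (top row, axis from below 0) and the 5 called lower (bottom row, axis from 81%) in CR-old than in AL-old mice, with the nearest gene above each panel. Points are mice and bars are mean ± SD, which can pass below 0 or above 100. In the top row AL-old 25 is the single red point near the young level.

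At the 5 named sites called lower the AL-old mean was above the young mean and the CR-old mean below it, with diet differences of -7.10 to -2.57 points. The Gm17031 site, chr12:107752492-107752497, lay 6.04 kb downstream of the start of a pseudogene and 504 kb from Vrk1, a protein kinase. AL-young mice read 92.2 to 95.2%, AL-old mice ran from 93.8 to 100% with a median of 99.0%, and CR-old mice read 88.0, 98.9, 87.0, 85.7 and 95.7%. CR-old 06 lay among the AL-old mice (log2 odds ratio -2.72 ± 0.80, SE, edgeR adjusted p = 0.0387). The call was kept in 9 of the 17 fits that left out 1 mouse.

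Rapgef1, a guanine nucleotide exchange factor of Rap proteins, had its start 51.3 kb from site a at chr2:29423893-29423898. AL-young mice read 97.2 to 98.2%, AL-old mice ran from 96.8 to 99.53% with a median of 98.7%, and CR-old mice read 89.4, 97.1, 91.6, 93.0 and 95.9% (log2 odds ratio -2.22 ± 0.66, SE, edgeR adjusted p = 0.0409). Only the lowest AL-old mouse, AL-old 08, was below the highest CR-old mouse, CR-old 06. This call was the least stable of the 10, kept in 5 of 17 fits.

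The other 3 named sites were chr6:146484927-146484932 (13.99 kb from 4933424B01Rik), chr4:32179811-32179816 (41.1 kb from the pseudogene Gm11927 and 100.4 kb from Map3k7, the kinase TAK1) and chr10:96595677-96595682 (AC152946.1 site a, 347 kb from Dcn, which encodes decorin). Their AL-old means were 99.0, 99.3 and 99.6% and their CR-old means 94.4, 95.1 and 97.0%, with edgeR adjusted p of 0.0247, 0.0212 and 0.0245. In each of the 3, CR-old 19 was lowest, at 89.2, 90.5 and 94.9%. They were kept in 13, 14 and 13 of 17 fits, and all were lost without CR-old 19, 20 or 22. Of the 10 named sites only AC152946.1 site a was called among the low-correction mice (edgeR adjusted p = 0.0463). In the fit of the old groups alone, chr4:32179811-32179816 was the only 1 of the 5 lower sites called (edgeR adjusted p = 0.0486). The others had edgeR adjusted p of 0.0814 to 0.148 there.

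The largest fall among the 18, singled out after its values were seen, was at chr2:172878705-172878710, 30.2 kb from Rbm38, an RNA-binding protein gene. AL-young mice read 85.9 to 90.8%. AL-old 09, 10, 14, 25 and 27 read 72.9, 88.9, 91.6, 78.3 and 95.4%, and AL-old 08 and 13 had under 100 reads. CR-old 02, 06, 19, 20 and 22 read 68.4, 71.7, 51.8, 35.7 and 30.7%, so the measured groups did not overlap. It was called in the main comparison (log2 odds ratio -2.41 ± 0.67, SE, edgeR adjusted p = 0.0278) and among the low-correction mice (adjusted p = 0.0463), and not with the covariate (adjusted p = 0.0747).

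The 3 completely separated sites, also named after their values were seen, showed small gaps. At chr4:32179462-32179467, 349 bp from the Map3k7 site, AL-old mice read 99.2 to 100% and CR-old mice 94.0 to 98.9% (edgeR adjusted p = 0.00872). At chr9:31084978-31084983, 3.14 kb from the start of Prdm10, AL-old mice read 99.4 to 100% and CR-old mice 94.1 to 99.0% (edgeR adjusted p = 0.0165). At chr17:84408804-84408809 they read 95.6 to 99.54% and 87.5 to 94.8%, and this site was not called (edgeR adjusted p = 0.215).

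Differences between AL-old and AL-young mice rest on the values that chose the sites and are given without a test. The median difference was -3.94 points raw and -1.23 points adjusted. The AL-old mean was more than 10 points below the young mean at 399 sites (32.4%) in raw and at 243 (19.7%) in adjusted methylation. The share was 28.8% raw and 16.4% adjusted in the gene body class, 29.4% and 21.6% in the promoter class, and 11.2% and 6.80% over all 15742 sites, so the order of intergenic and promoter sites turned with the adjustment. Without AL-old 25 the AL-old mean was that far down at 439 intergenic sites (35.6%) raw and 274 (22.2%) adjusted.

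Among the 610 sites that reached 100 reads in each of the 17 mice, taking 1 site per 10 kb, the 5 with the largest fall of the AL-old mean were, in order, the Tnfrsf13c site, Begain site b, the Clrn3 site, the 2310015A10Rik site and the Gm8935 site. The last, at chr3:12403229-12403234, lay 453 kb from the nearest start in sequence with no other CG in the printed run. AL-young mice read 82.8 to 88.0% there, AL-old mice 6.01 to 71.8% with a median of 38.9%, and CR-old mice 71.8, 77.6, 56.9, 63.9 and 74.0%. AL-old 25 was also the highest AL-old mouse here but lay below the young range.

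Under the same conditions the AL-old mean exceeded the young one by at most 9.70 points. That site, chr3:65259678-65259683, lay 63.1 kb from Ssr3, which encodes a subunit of the complex at the protein-conducting channel, and AL-young mice read 78.8 to 82.3%, AL-old mice 77.2 to 98.1% and CR-old mice 68.7 to 85.2%. The others were chr1:63448017-63448022, 44.4 kb from Adam23, with a difference of 7.11 points, and Rapgef1 site b at chr2:29424043-29424048, 150 bp from site a, with 6.77 points. At Rapgef1 site b CR-old 02, 06, 19, 20 and 22 read 66.7, 87.1, 68.0, 65.5 and 67.5% and AL-young mice 79.0 to 82.6%.

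Some sites were fixed near full methylation in every mouse. Of the sites read in all 17 mice, the smallest range was 0.505 points at chr10:96595504-96595509, the AC152946.1 site b, where all 7 AL-old mice read 100%, the other mice 99.49 to 100%, and the 223 reads of the shallowest mouse allow up to 1.35% unmethylated reads. It lies 173 bp from site a, where CR-old 19 read 94.9%. The next were chr6:107230559-107230564, with a range of 1.68 points, and chr10:90660700-90660705, 25.9 kb from Tmpo, a nuclear lamina protein gene, with a range of 1.71 points. Over all 564 single values at the named sites the 95% Wilson interval had a median width of ± 2.34 points and was at most ± 8.70 points wide, and such intervals cover counting error only.

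At the edge of the rule, the site just inside the 80% level had an AL-young mean of 80.1 ± 4.12% (SD, n = 5) and lay at chr4:122853243-122853248, 7.22 kb from Hpcal4. The site just outside had 79.99 ± 3.76% (SD, n = 5) and lay at chr5:119583325-119583330. AL-old mice read 6.73 to 86.3% at the first, with 4 of 7 mice measured, and 19.2 to 95.1% at the second.

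Lists of genes known in blood and chromatin were searched for sites near them. The share over all annotated genes is not given here, so the counts are not a result about the listed genes. Of 54 blood lineage factors (53 annotated), only Cebpa, a factor of the myeloid lineage, was the nearest start of a site within 20 kb. That site lay 11.6 kb away at chr7:35915904-35915909 and was not called (edgeR adjusted p = 0.469). It read 93.6 to 97.5% in AL-young mice, 86.8 to 99.2% in the 4 AL-old mice measured and 85.7 to 93.8% in CR-old mice. Of 93 genes of immune receptors, cytokines and signalling (92 annotated), only Cd83, a surface marker of activated dendritic cells and B cells, had sites. Of 55 regulators of DNA methylation and chromatin (53 annotated) none had one. Tnfrsf13c was not on the lists.

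The Cd83 sites lay 14.9 and 14.6 kb upstream of its start, 329 bp apart. At chr13:43865544-43865549 AL-young mice had a mean of 96.3 ± 1.72% (SD, n = 5), AL-old mice read 28.7 to 94.0% with a median of 89.9%, and CR-old mice 90.3, 96.6, 88.2, 87.6 and 88.9%. The low AL-old mouse was AL-old 27, and the next, AL-old 14, read 73.1%. At chr13:43865873-43865878 the AL-old range was 84.4 to 99.7%, and neither site was called (edgeR adjusted p = 0.588 and 0.8).

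The rule used distance to a start, GC content and the CpG ratio, so these are given as descriptions. The median distance to the nearest transcription start was 32812 bp (788 to 642230 bp), 737 had a protein-coding gene as nearest, and 633 different genes were nearest to at least 1 site. The median GC content was 49.8%, the median ratio of observed to expected CpG 0.265, and a window of 500 bp held 8 CpGs at the median (1 to 32). The low CpG ratio admitted 1221 of them. Islands and copied flanks took no part in the rule. Only 126 sites lay in a CpG island as called on the assembly. At 1172 sites the 36 bases read outward from the cut, on either side, were found at no other deposited site.

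Raw methylation was lower at sites with few CpGs close by, in every mouse. Sites with no other CpG within 35 bp numbered 473, those with 1 numbered 432 and those with 2 or more 327. The mean over sites with 2 or more minus the mean over sites with none was 2.56 to 3.13 points in AL-young mice, where the choice of sites limits the range of levels. In AL-old 08, 09, 10, 13, 14, 25 and 27 it was 12.8, 5.49, 4.74, 14.7, 5.67, 2.80 and 10.1 points. In CR-old 02, 06, 19, 20 and 22 it was 4.22, 3.75, 6.15, 4.95 and 4.56 points. The gap was positive in 17 of 17 mice, with AL-old 25 within the young range. The AL-old (8.04 ± 4.50, SD, n = 7) and CR-old (4.73 ± 0.91, SD, n = 5) ranges overlapped. These gaps are of raw values, and the largest were in AL-old 13 and 08, whose correction factors were 3.96 and 3.19. At sites with none and with 2 or more, the median AL-old level was 86.5 and 93.8% raw, and 90.6 and 95.8% adjusted. The CR-old medians were 87.65 and 93.0% raw, and 88.5 and 93.4% adjusted. The part of the correction in the gaps was not tested.

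**Figure D5:**
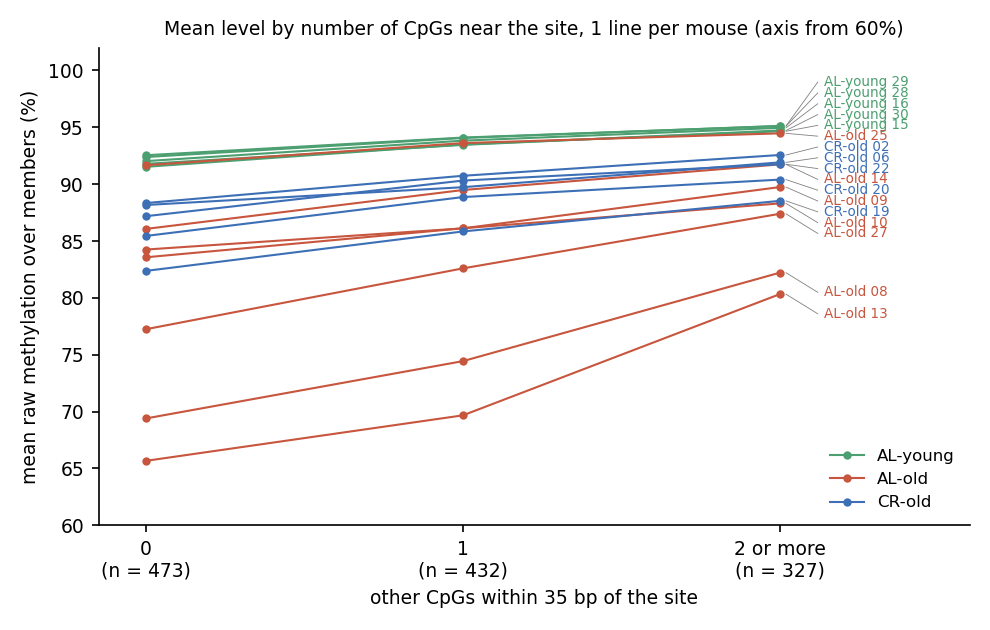
Mean raw methylation (%, axis from 60%) over sites with 0, 1 or 2 or more other CpGs within 35 bp (x axis), 1 line per mouse coloured by group. All 17 lines rise to the right, by 2.56 to 3.13 points in AL-young mice and by up to 14.7 points in AL-old 13.

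The AL-old SD of a site in raw values had a median of 11.8 points with no other CpG nearby, 8.79 with 1 and 6.16 with 2 or more. The Cpsf6 and Gm8935 sites had no neighbour, while AC152946.1 site b, the steadiest site, had 1 within 35 bp and 2 other CGs in its 100 bases. Larger falls were seen at sites with neighbours. The Tnfrsf13c site, Begain site b and the 2310015A10Rik site each had 1 within 35 bp, and the Clrn3 site had 2. Single sites therefore need not follow these medians. The median diet difference was 1.23, 0.56 and -0.54 points raw in these 3 groups and -1.67, -1.16 and -1.61 points adjusted, so its direction in the first 2 groups depended on the correction.

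Position and base composition separated the sites less. The median AL-old level was 88.5% within 5 kb of a start (121 sites), 89.0% from 5 to 50 kb (640) and 91.2% beyond 50 kb (471), and the CR-old medians were 89.6, 90.3 and 91.2%. The 126 sites inside islands had an AL-old median of 93.2% and a CR-old median of 92.8%, against 89.2 to 89.97% and 90.1 to 90.7% for the bins outside islands. By GC content the AL-old medians ranged from 89.7 to 90.8% and the CR-old medians from 90.3 to 91.1%. The 60 sites with copied flanks were a little higher, with AL-old medians of 95.8% for 2 to 10 copies (25 sites) and 95.04% for more than 10 (35 sites), against 89.6% for unique sites.

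Motifs of blood transcription factors were counted in the 500 bp windows on both strands. TGTGGT, the core of RUNX sites, was found in 30.2% of the sites, against 20.0% of all 15742 and 29.6% of the 6850 retained sites in CpG-poor sequence. An ETS core, AGGAAGT, was found in 9.25% of the sites (8.47% of all and 11.3% of CpG-poor sites). The core bound by the erythroid and megakaryocytic factor family of Gata1, AGATAAG, was found in 5.28% (2.73% and 4.54%). None of the 3 letter strings contains another. Sites with and without TGTGGT had AL-old medians of 89.6 and 90.2% and CR-old medians of 90.1 and 90.8%. Those with AGATAAG numbered 65, with an AL-old median of 92.3% and a CR-old median of 91.8%.

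The difference between adjacent sites did not grow steadily with their distance. Among AL-old mice the median absolute difference between adjacent sites was 9.85 points at 100 to 200 bp (185 pairs), 6.597 at 200 to 300 bp (156 pairs), 4.85 at 300 to 1000 bp (98 pairs), 18.8 at 1000 to 10000 bp (16 pairs) and 14.6 beyond 10000 bp (739 pairs). At under 100 bp it was 18.6 points, over 19 pairs. In CR-old mice the same medians were, in this order, 5.21, 4.16, 4.75, 8.62, 7.51 and 8.77 points, and in AL-young mice 3.13, 2.65, 2.61, 6.89, 4.72 and 6.18 points. Close sites can be the ends of 1 fragment, so the pairs are not independent.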

How the data were processed

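DREAM libraries of whole blood DNA from 17 mice were analysed, 1 table per mouse. The authors mapped the reads, and the deposited tables give for each CCCGGG site the counts of methylated and of all reads and the percent methylation before and after their correction with spiked standards. The submitters' processing notes name Bowtie2, SAMtools, mm9 and mm10. The deposited positions fell on CCCGGG in NCBIM37 (mm9), which was used with GENCODE M1, and 173449 sites did so. The sites and gene lists were chosen with earlier results of these data known.

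Raw methylation is the percent of methylated reads, and values under 100 reads were dropped. No 2 mice had identical tables. Read counts, methylated and unmethylated, entered edgeR 4.0.16 (R 4.3.3) by its quasi-likelihood F test with a coefficient per mouse and per group, 1 common dispersion and Benjamini-Hochberg adjustment over 15742 sites. A call needs an adjusted p under 0.05 together with a gap of 2 points or more between raw means. The step was run on simulated reads with the same spread in every group and no shift by a correction factor. These data differ in both, so that run does not bear on the calls here. High correction means a factor of at least 1.3. CpG islands were called on the assembly (200 bp, GC content of 50% or more, observed over expected CpG of 0.6 or more). Other steps used Python 3.11.15, numpy 2.4.6, pandas 2.3.3, pysam 0.24.0 and matplotlib 3.10.9.

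Named sites were, among those with 100 reads in all 17 mice, off chromosome 18 and with 1 site per 10 kb, the 5 with the largest raw diet difference among calls in each direction, the 5 largest falls and 3 largest rises of the AL-old mean, the 3 with the smallest range over all mice. Sites within 20 kb of a listed gene and those next to the 80% level were added. Alternatives were the adjusted values, the factor as offset or covariate, low-correction mice, 1 sex, the old groups alone, limma 3.58.1 on log2 ratios, 20 or 500 reads, an AL-young level above 90, no minimum difference, and each mouse left out. Total reads were 6427598 to 52015913 per mouse, and Wilson 95% intervals and floors of 3 counts cover counting error only, since PCR copies were not marked by molecular identifiers.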

Additional observations from a re-analysis of the deposited data

Results flagged for a closer look

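In 15 of 99 groups of mice at the named sites 1 mouse lay far from the others of its group by Dixon's criterion, which chance meets in about 1 group in 20. The named sites were chosen for large differences or small ranges, so the groups are not a random draw.

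AL-old 25 was the mouse concerned at 7 sites. It read 87.97% at the Tnfrsf13c site, 83.47% at the Clrn3 site, 83.9% at Begain site a, 89.44% at Begain site b and 84.31% at the 2310015A10Rik site, where no other AL-old mouse exceeded 23.7%. It read 97.24% at the Map3k7 site and 74.76% at the Adam23 site, below the other AL-old mice in both. CR-old 06 read 36.4% at the Tnfrsf13c site, below the other CR-old mice, and 87.09% at Rapgef1 site b, above them.

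AL-old 27 was the lowest AL-old mouse at the first Cd83 site with 28.71%, at chr8:116078580-116078585, 26.0 kb from the snRNA gene U1 and singled out after its values were seen, with 65.17% and at the steady site chr6:107230559-107230564 with 98.32%. AL-old 14 read 84.42% at the other Cd83 site. AL-old 08 read 99.07% at AC152946.1 site a and CR-old 02 read 98.39% at the Tmpo site, each the lowest of its group. None of the 10 sites tested by sex was marked.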

How the results depend on the processing

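The number of sites called between the diets depended on the fit. Against 21 higher and 18 lower in CR-old mice, the correction factor as an offset gave 14 and 116, correction as a covariate 0 and 0, low-correction mice alone 0 and 15, the old groups alone 10 and 4 (0.883% and 0.743% of all sites), limma 8 and 23 (0.953% and 1.14%), a minimum of 500 reads 6 and 3 of 120 (1.73% and 1.21% of 4229), an AL-young level above 90% 8 and 17, and leaving out AL-old 08 and 13 together, an alternative chosen after seeing the data, 8 and 23 (0.870% and 2.95% of all sites). The AL-young level above 90% left 937 sites and used the main fit, which called 1.65% and 1.77% of all sites. Leaving out 1 mouse gave 9 to 91 higher and 3 to 50 lower, with both upper ends without AL-old 25 (4.19% and 3.70% of all sites). The higher count was also moved by over 1.5 times without AL-old 10 (32), AL-old 13 (11), CR-old 02 (12), CR-old 19 (10), CR-old 20 (9) and CR-old 22 (10). The lower count was so moved without AL-old 10 (11), AL-old 14 (6), AL-old 27 (31), CR-old 02 (7), CR-old 06 (48), and CR-old 19, 20 or 22 (3 each). No share over all sites is given for the fits without 1 mouse other than AL-old 25. A shift at these sites and a shift over all sites cannot be told apart there. The cause was not tested.

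The median diet difference over the sites, 0.34 points, ranged from -2.49 (males) to 2.18 points (females), and from -0.29 to 1.10 points with 1 mouse left out. All 10 named differences kept their direction in every alternative run. No paired analysis was possible because the groups share no mouse numbers. AL-old 08 and 13 lacked many sites, so 612 of the 1232 sites had a value in all 7 AL-old mice.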
